A study of Mus musculus with 6 samples.

Results

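The HIF subunits and the oxygen-sensing hydroxylases were followed in MLO-Y4 cells, a clonal mouse line with features of osteocytes, the cells that lie embedded in bone matrix. The members were 10 genes chosen by name: the subunits Hif1a, Epas1, Hif3a and Arnt, the prolyl hydroxylases Egln1, Egln2 and Egln3, the asparaginyl hydroxylase Hif1an, the ubiquitin ligase subunit Vhl and the coactivator-binding protein Cited2. All 10 were found by symbol among 39174 gene rows, and 7 of them had a mean of at least 1 FPKM (fragments per kilobase of transcript, scaled to the library's depth) and entered the test of 11957 genes. In the flow group, 3 cultures received oscillating fluid flow (10 dyn/cm² shear stress) for 2 h in parallel-plate chambers and were lysed after a further 2 h in fresh medium. In the non-flow control group, 3 cultures were sham-treated in parallel. All cultures grew on glass coated with type I collagen in the same serum-containing medium, the labels name no oxygen treatment, and replicates were collected on separate days.

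Hypoxia-inducible factors are pairs of an oxygen-regulated alpha subunit and the constant beta subunit ARNT. When oxygen is present, EGLN enzymes hydroxylate prolines of the alpha subunit, VHL binds the hydroxylated protein and marks it for degradation, and HIF1AN hydroxylates an asparagine that blocks binding of the coactivators p300 and CBP. This control acts on protein, so alpha subunit mRNA need not follow HIF activity. Egln1 and Egln3 are themselves known HIF target genes in many cell types, whereas Egln2 and Hif1an are not known for induction by HIF. In bone, HIF signalling in osteoblasts and osteocytes is known for its part in coupling blood vessel growth to bone formation.

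HIF binds DNA at a short core, ACGTG or GCGTG, and the promoters of Egln1, Egln3 and Hif1a are shown because the contrast below is between these hydroxylases and this subunit. Each sequence is the 250 bases before the RefSeq start (GRCm38.p6, the same assembly as mm10), 5′ to 3′ on the gene's strand, with matches to either core on either strand in capitals. The Egln1 stretch is chr8:124949255-124949504 (minus strand), that of Egln3 is chr12:54203875-54204124 (minus strand) and that of Hif1a is chr12:73907617-73907866 (plus strand).
Egln1: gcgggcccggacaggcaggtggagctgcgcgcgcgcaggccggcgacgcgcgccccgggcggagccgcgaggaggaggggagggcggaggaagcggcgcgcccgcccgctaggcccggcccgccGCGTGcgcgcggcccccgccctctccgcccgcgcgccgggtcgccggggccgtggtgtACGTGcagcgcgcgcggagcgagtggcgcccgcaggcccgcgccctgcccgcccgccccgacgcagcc
Egln3: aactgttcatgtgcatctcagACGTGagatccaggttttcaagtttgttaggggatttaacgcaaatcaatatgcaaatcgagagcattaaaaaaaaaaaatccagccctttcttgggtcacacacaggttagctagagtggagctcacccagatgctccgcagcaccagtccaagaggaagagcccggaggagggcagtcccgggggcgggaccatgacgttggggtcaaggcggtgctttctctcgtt
Hif1a: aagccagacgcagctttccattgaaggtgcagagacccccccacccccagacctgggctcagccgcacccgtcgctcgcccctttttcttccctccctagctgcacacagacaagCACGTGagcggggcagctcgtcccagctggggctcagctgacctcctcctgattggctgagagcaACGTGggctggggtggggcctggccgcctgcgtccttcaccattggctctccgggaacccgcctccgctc
In Egln1 a GCGTG began 126 bases and an ACGTG 68 bases before the start. Starts differ by annotation: GENCODE M21 begins Egln1 at 124949324, inside the printed stretch, so this ACGTG lies within that gene span. It begins Hif1a at 73901375, so the printed Hif1a stretch lies within that gene's span. Egln3 held 1 ACGTG, 229 bases before the start. Hif1a held 3 matches to ACGTG, of which a forward and a reverse match overlapped in the palindrome CACGTG. Over the full window of 250 bases before to 50 after the start, 8 of the 10 RefSeq promoters of the 9 matched members held either core, against 43.8% of all 32851 promoters. One of the 2 Egln2 promoters held 6 matches, more than Egln1 with 2, and Vhl and Hif1an held 0. A match is a string of letters and shows no binding. The entry of Epas1 was not in the promoter table.

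Sequencing depth, estimated from the size of 1 read in low genes, was 5755000 to 19230000 reads in flow libraries and 17910000 to 19010000 reads in non-flow controls. Flow library 2 was the shallowest at 5755000 reads and flow library 1 had 11020000 reads. Of 7 osteocyte markers, Pdpn, Gja1 and Phex averaged at least 1 FPKM, and Sost, Mepe and Fgf23 were listed at 0 in all 6 libraries, so the label rests on part of its markers. The 7 markers summed to 856.1 to 863.6 FPKM in flow libraries and 776.7 to 928.5 FPKM in non-flow controls. Of 6 endothelial markers 1 averaged at least 1 FPKM (Eng), and Kdr was listed at 0 in all libraries. The 6 summed to 78.2 to 91.2 FPKM in flow libraries and 90.3 to 116.7 FPKM in non-flow controls, and their part in any result was not tested. Among macrophage markers Cd68 alone, among adipocyte markers Fabp4 alone and among chondrocyte markers Sox9 alone averaged at least 1 FPKM. In these bulk samples, fewer cells that express a gene and less RNA per cell cannot be told apart.

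Egln1 was the tested member whose groups did not overlap. Its mean level was 13.7 ± 3.94 FPKM in flow cells and 29.5 ± 8.01 FPKM in non-flow control cells (SD, n = 3 each), and its 3 flow values lay below all 3 control values. The levels of Hif1a, Arnt, Egln2, Hif1an, Vhl and Cited2 overlapped between the groups. No member passed the test: over the 11957 genes, limma with Benjamini-Hochberg adjustment gave the 7 tested members adjusted p-values of 0.559 to 0.782. The same test called 0.0167% of all genes, that is 2, with 0.00836% lower and 0.00836% higher in flow. Groups did not overlap in 1 of the 7 tested members, against 15.1% of all genes tested, and in all genes the flow values lay below all controls in 8.0% and above them in 7.12%. The log2 fold change was negative in all 7 (median -0.18), and in 51.7% of all genes (median -0.01).

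**Figure D1:**
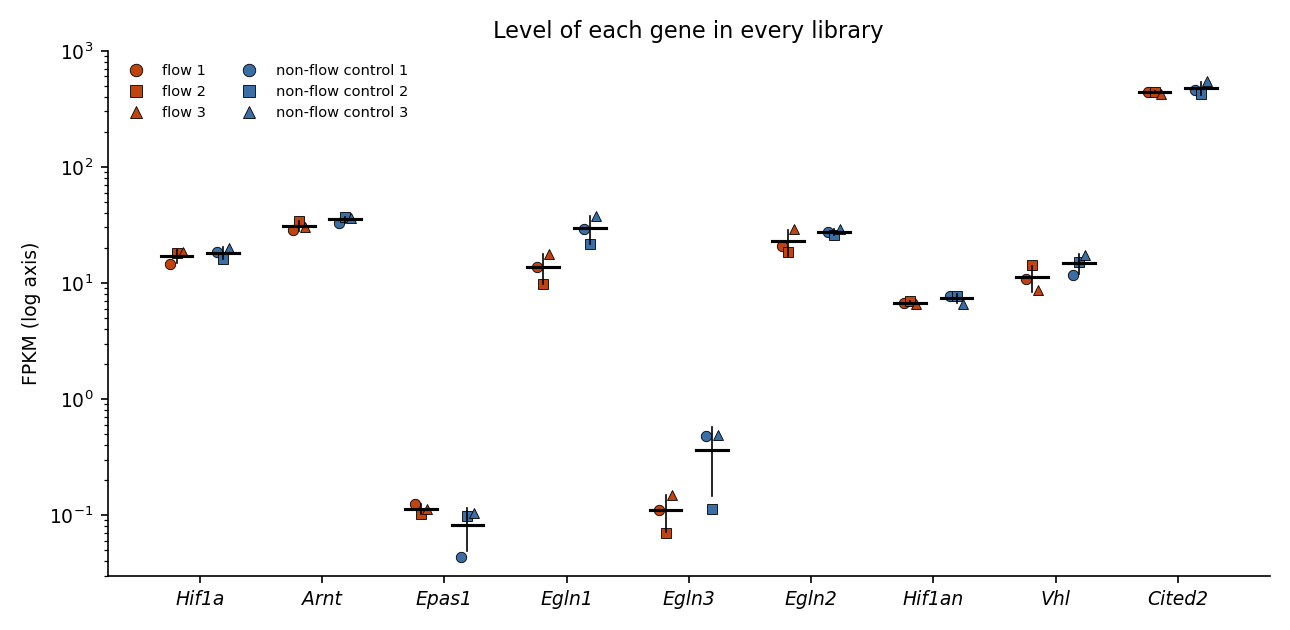
FPKM (log axis) of 9 members in each library, with flow in red left of non-flow control in blue, a horizontal bar at the mean and a vertical bar of 1 SD (n = 3 each). Egln1 is the gene above 1 FPKM whose 3 flow points (9.79 to 17.7) lie below its 3 control points (21.7 to 37.7), and Hif3a, listed at 0 in all libraries, is not drawn.

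Egln1 (ENSMUSG00000031987) encodes PHD2, the main prolyl hydroxylase of HIF alpha in most cells at normal oxygen. It lies on the minus strand of chromosome 8 at 124908587 to 124949324 (mm10), is protein-coding, and no other annotated gene overlaps it. Its level was 13.7, 9.79 and 17.7 FPKM in flow libraries 1 to 3, against 29.3, 21.7 and 37.7 FPKM in non-flow controls 1 to 3. The highest flow value thus lay under the lowest control value. With 191 to 2430 reads per library, estimated from the longest annotated transcript, counting error was small beside the spread between cultures. On the log2(FPKM + 1) scale used for all fold changes (flow minus control), the log2 fold change was -1.06 with SE 0.27 (limma, unadjusted p = 0.00706, adjusted p = 0.559), a ratio of 0.481. With 3 cultures per group an exact two-sided permutation test cannot give a p below 0.1, so none was run on a single gene. Omission of any 1 library gave log2 fold changes of -1.25 to -0.85, all uncalled.

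Egln3 (ENSMUSG00000035105), on the minus strand of chromosome 12 at 54178981 to 54203860, encodes PHD3, a prolyl hydroxylase known for strong induction by hypoxia in many cells. It was at 0.110, 0.0705 and 0.148 FPKM in flow libraries 1 to 3, against 0.476, 0.112 and 0.491 FPKM in non-flow controls 1 to 3. Non-flow controls 1 and 3 were high, while control 2 lay within the flow range, so the groups overlapped. Multiplied by depth, the 6 values were whole numbers of reads within 0.0046 read. They correspond to 3, 1 and 7 reads in flow and 21, 5 and 23 reads in controls. The transcript length that these steps imply is 2664 nt, and the annotated transcript has 2662 nt. Summed over the group, 11 reads stood in flow and 49 in non-flow control, from groups of unequal depth. Exact 95% Poisson intervals, which cover counting error only, ran from 0.0593 to 0.304 FPKM in flow library 3 and from 0.0363 to 0.262 FPKM in control 2, against 0.295 to 0.727 FPKM in control 1. Egln3 was below the filter and was not tested. Its mean difference was -0.28 on the log2(FPKM + 1) scale. In the other deposited table it had 0.112, 0.0919 and 0.0879 FPKM in the flow columns and 0, 0.265 and 0.516 FPKM in non-flow controls 1 to 3, which overlapped.

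**Figure D2:**
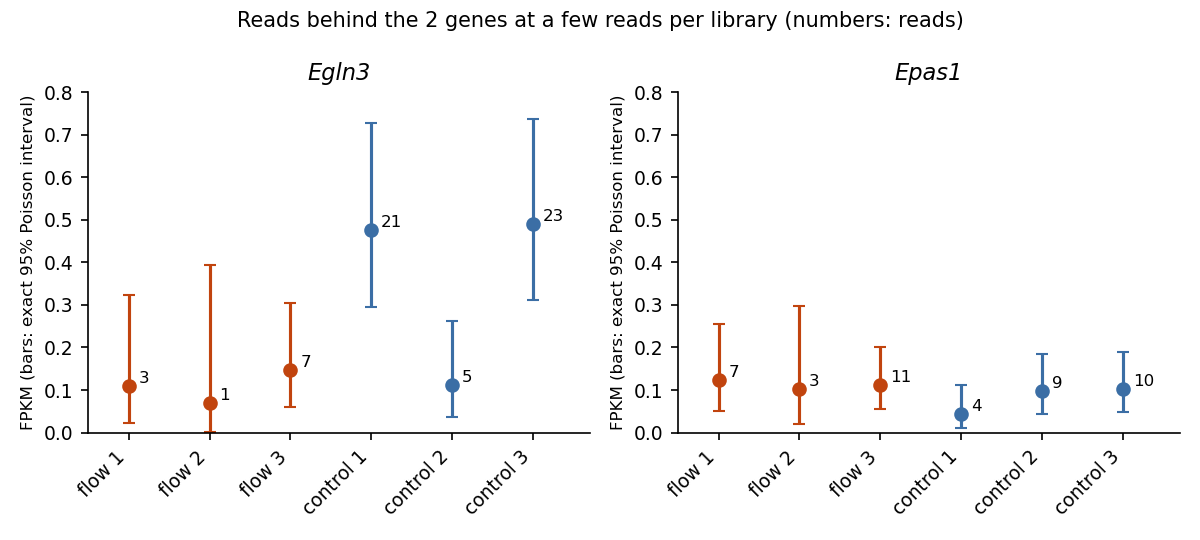
FPKM of Egln3 and Epas1 in each library with the number of reads printed beside each point, flow in red and non-flow control in blue, and exact 95% Poisson intervals as bars. For Egln3, controls 1 and 3 stand at 21 and 23 reads while control 2, with 5 reads, lies among the flow libraries, and for Epas1 the 6 intervals overlap.

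The hydroxylases not known as HIF targets had overlapping groups. Egln2 (ENSMUSG00000058709; chromosome 7, 27158658 to 27166802, minus strand) encodes PHD1, the third prolyl hydroxylase. Its values were 20.8, 18.5 and 29.2 FPKM in flow libraries 1 to 3, against 27.6, 25.6 and 28.9 FPKM in the controls. Flow libraries 1 and 2 lay below all controls and flow library 3 above them. The log2 fold change was -0.27 with SE 0.17 (limma, adjusted p = 0.590). It was -0.46 without flow library 3 (adjusted p = 0.0877), -0.14 without flow library 2, and -0.04 after removal of each library's trend in GC content. On the opposite strand Cyp2t4 shares 0.393% of the exon bases of Egln2, and in the tested table both genes carry 1 joined locus, 27153714 to 27166802.

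Hif1an (ENSMUSG00000036450; chromosome 19, 44562850 to 44576274, plus strand) encodes FIH, the asparaginyl hydroxylase. It was at 6.68, 7.03 and 6.61 FPKM in flow, against 7.76, 7.73 and 6.56 FPKM in non-flow control. Control 3 was the lowest of all 6 libraries, and the groups overlapped. Its log2 fold change was -0.10 with SE 0.11 (limma, adjusted p = 0.716), and it was -0.17 without control 3 and -0.05 after GC correction.

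Among the subunits, Hif1a (ENSMUSG00000021109) encodes the alpha subunit of HIF-1 and lies on the plus strand of chromosome 12 at 73901375 to 73947530. It was at 14.53, 18.1 and 18.29 FPKM in flow libraries 1 to 3, against 18.58, 15.92 and 19.96 FPKM in non-flow controls 1 to 3. Flow library 1 was the lowest and control 3 the highest of 6 interleaved values. The log2 fold change was -0.09 with SE 0.14 (limma, adjusted p = 0.782). Its sign was not stable: it was 0.01 without flow library 1, -0.28 after GC correction and 0.16 in the other deposited table. Arnt (ENSMUSG00000015522; chromosome 3, 95434388 to 95497240, plus strand), the beta subunit, had 28.4, 34.3 and 30.3 FPKM in flow, against 32.8, 36.8 and 35.9 FPKM in non-flow control. Its groups overlapped through flow library 2, with a log2 fold change of -0.18 and SE 0.11 (limma, adjusted p = 0.575). The change was -0.12 without flow library 1 and -0.51 in the other deposited table, where control 1 stood at 73.3 FPKM.

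Hif1a shares its locus with Gm15283, an antisense RNA gene whose exons cover 5.6% of the Hif1a exon bases, and Gm49321 on the same strand covers 2.51%. In the tested table Hif1a and Gm15283 carry the same joined locus, and the use of strand is not given in the sources used here, so reads of the shared bases cannot be told apart. Gm15283 had 13.3, 17.1 and 16.2 FPKM in flow libraries, against 14.6, 13.1 and 16.9 FPKM in the controls, overlapping groups. Hif1a stood at 1.09, 1.06 and 1.13 times Gm15283 in flow libraries and 1.28, 1.22 and 1.18 times in the controls, without overlap, and the groups overlapped in the other deposited table. The level of Hif1a depended on the table. In the other deposited table it was 57.8 FPKM in flow library 1 and 66.3, 48.1 and 59.6 FPKM in the controls, 2.99 to 3.98 times the tested table in these 4 libraries. The other tested members differed by factors of 0.673 to 2.23 between the tables in the same libraries. The 2 flow columns whose names match no library title had 70.6 and 65.4 FPKM. The direction of Hif1a is therefore not settled, and comparisons of its absolute level with other genes hold for the tested table only.

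The remaining alpha subunits were at or near 0. Epas1 (ENSMUSG00000024140; chromosome 17, 86753700 to 86833410, plus strand), which encodes HIF-2 alpha, had 0.124, 0.102 and 0.112 FPKM in flow libraries, against 0.0436, 0.0973 and 0.103 FPKM in non-flow controls. These values equal 7, 3 and 11 reads in flow and 4, 9 and 10 reads in control. The groups overlapped, the gene was below the filter and was not tested, and so few reads can neither show nor exclude a difference. In the shallower other table the values were 0.216, 0.0885 and 0.169 FPKM in the flow columns. Non-flow controls 1 to 3 had 0, 0 and 0.0828 FPKM there, without overlap. Control 1 of that table had only 686700 reads and no column more than 4722000, so a 0 there can be too few reads, and this difference was not tested. Hif3a (ENSMUSG00000004328; chromosome 7, 17031507 to 17062427, minus strand), whose products include inhibitors of HIF, was listed at 0 in all 6 libraries. For its longest transcript 3 reads would equal 0.0252 to 0.084 FPKM.

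Vhl (ENSMUSG00000033933; chromosome 6, 113623959 to 113631633, plus strand) encodes the subunit that recognises hydroxylated HIF alpha. It had 10.7, 14.2 and 8.63 FPKM in flow, against 11.7, 15.2 and 17.5 FPKM in non-flow control. Flow library 2 lay inside the control range, and the log2 fold change was -0.39 with SE 0.22 (limma, adjusted p = 0.564). It was -0.23 without flow library 3. Cited2 (ENSMUSG00000039910; chromosome 10, 17723218 to 17725674, plus strand), a HIF-induced protein that competes with HIF alpha for p300 and CBP, was the most abundant member. It had 445.3, 443.2 and 428.2 FPKM in flow, against 458.2, 426.3 and 551.0 FPKM in non-flow control. Only control 3 stood above the narrow range of the other 5 libraries. The log2 fold change was -0.12 with SE 0.11 (limma, adjusted p = 0.676), -0.01 without control 3, -0.19 without control 2 and 0.01 after GC correction.

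**Figure D3:**
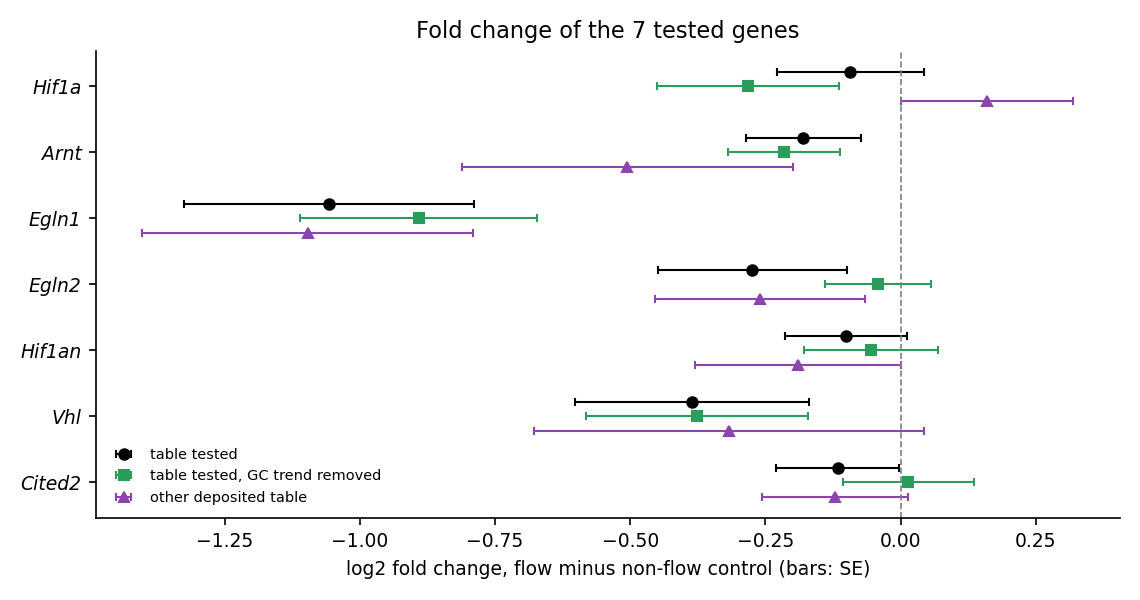
Log2 fold change, flow minus non-flow control, of the 7 tested members with SE as bars, from the tested table (black), after removal of the GC trend (green) and from the other deposited table (purple). Egln1 stands between -1.10 and -0.89 in all 3, while Hif1a changes sign between the tables.

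Levels per length ran from Cited2 at the top, 438.9 ± 9.36 FPKM in flow and 478.5 ± 64.8 FPKM in non-flow control (SD, n = 3 each), to Hif3a, listed at 0. In flow cells Arnt and Egln2 followed with overlapping ranges, then Hif1a, Egln1 and Vhl, each overlapping its neighbour, then Hif1an and, far below, Epas1 and Egln3. In non-flow control cells Egln1 stood next to Arnt and above Egln2, with overlapping ranges on both sides, before Hif1a, Vhl and Hif1an. Egln1 thus had rank 5 of the 10 in flow and rank 3 in non-flow control, and Egln2 was the leading prolyl hydroxylase in every flow library.

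Ratios between genes within a library do not depend on how libraries were scaled. Egln1 stood at 0.656, 0.529 and 0.606 times Egln2 in flow libraries 1 to 3, against 1.06, 0.847 and 1.30 times in non-flow controls 1 to 3. All flow ratios lay below all control ratios. Relative to Hif1a, Egln1 was at 0.940, 0.541 and 0.966 in flow and at 1.58, 1.36 and 1.89 in non-flow control, again without overlap. Egln1 therefore exceeded Hif1a in every control library and in no flow library of the tested table. For Egln2 over Hif1a the ratios were 1.43, 1.02 and 1.59 in flow and 1.49, 1.61 and 1.45 in control, which overlapped, as did Hif1an over Hif1a and Hif1a over Arnt in this table. In the other deposited table the ratio of Egln1 to Egln2 was 0.602, 0.461 and 0.670 in the flow columns, against 1.11, 0.904 and 1.18 in the controls, and the ratio to Hif1a did not overlap either. Hif1a over Arnt was 2.10, 2.07 and 2.05 in the flow columns of that table and 0.905, 1.35 and 1.78 in its controls, which did not overlap. Egln1 over Arnt, without overlap in the tested table, overlapped in that table. Arnt was there at 73.3 FPKM in control 1, the column with the lowest depth (686700 reads), and this value enters both ratios to Arnt.

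The contrast of both HIF-induced hydroxylases with the detected subunits contains Egln1, so it is no separate support for the difference in that gene. The mean log2(FPKM + 1) of Egln1 and Egln3 minus that of Hif1a, Epas1 and Arnt was -0.99, -1.41 and -0.92 in flow libraries 1 to 3, against -0.40, -0.82 and -0.32 in non-flow controls 1 to 3. Each flow value lay below each control value, and the group means differed by -0.59, where the pooled SD of libraries was 0.27. Egln3 and Epas1 carry little weight on this scale: with log2(FPKM + 0.1) the difference was -1.05. Egln1 minus Hif1a differed by -0.96 between the groups, and by -0.61 after GC correction. These differences are descriptions and carry no test, since the members were chosen with earlier results known.

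**Figure D4:**
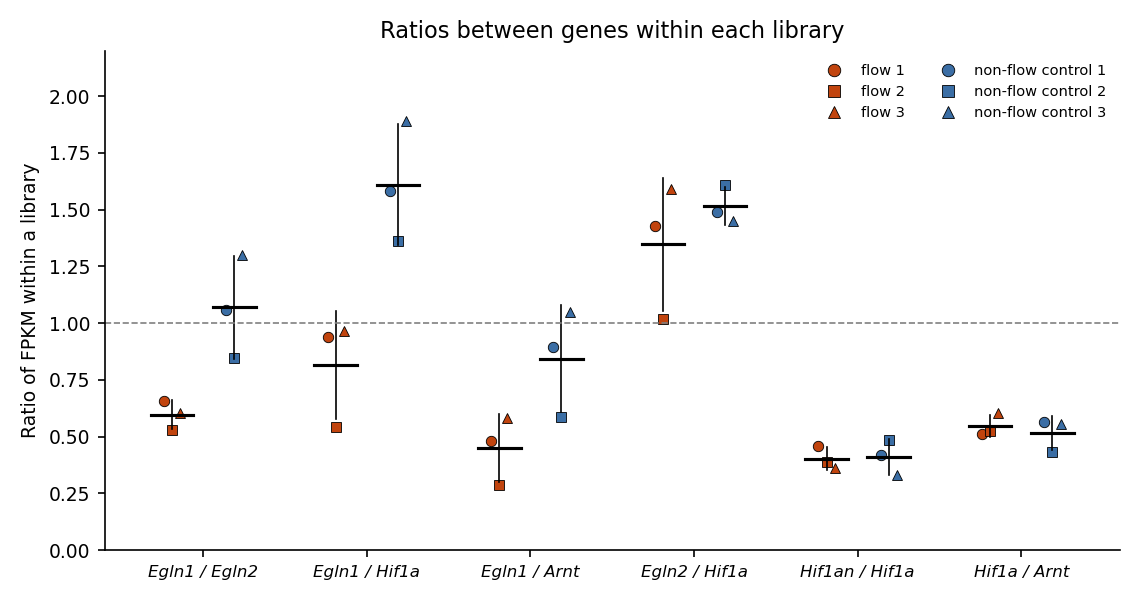
Ratio of FPKM between pairs of members within each library, flow in red left of non-flow control in blue, with the mean and 1 SD (n = 3 each) and a dashed line at 1. The 3 ratios with Egln1 on top show no overlap between groups, for example 0.529 to 0.656 in flow and 0.847 to 1.30 in control over Egln2, and the other 3 ratios overlap.

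The other genes of the pathway were taken from 6 lists without the members, and none of their genes was called by limma after adjustment. The lists were chosen with earlier results of these data known, so counts over them are descriptions, and no list was tested as a set. Without adjustment 4.82% of all 11957 genes had p under 0.05 and were lower in flow, and 3.70% were higher. Known HIF target genes were mostly lower in flow: the log2 fold change was negative in 32 of 35 tested (median -0.47), and 19 had an unadjusted p under 0.05 in that direction (limma). In 18 of the 35, or 51.4%, all flow values lay below all controls, against 8.0% of all genes. The median deviation of these targets from their control mean was -0.63, -0.63 and -0.41 in flow libraries 1 to 3, and -0.17, -0.17 and 0.28 in non-flow controls 1 to 3. Egln1, a member and so not counted in this list, lay within its range of fold changes, with 7 of the 35 targets more negative. Bnip3, a mitochondrial BCL2 family protein, had 17.4, 12.1 and 20.1 FPKM in flow and 56.2, 51.3 and 77.6 FPKM in control (limma, log2 fold change -1.85, SE 0.23, adjusted p = 0.413). Gys1, muscle-type glycogen synthase, had 21.4, 20.7 and 31.5 FPKM in flow and 41.1, 44.3 and 55.8 FPKM in control. Tfrc, the transferrin receptor, went the other way, with 110.2, 116.4 and 110.8 FPKM in flow and 73.6, 59.9 and 58.0 FPKM in control (limma, log2 fold change 0.82, SE 0.11, adjusted p = 0.413). Vegfa, Adm and Car9, other known targets, had overlapping groups.

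**Figure D5:**
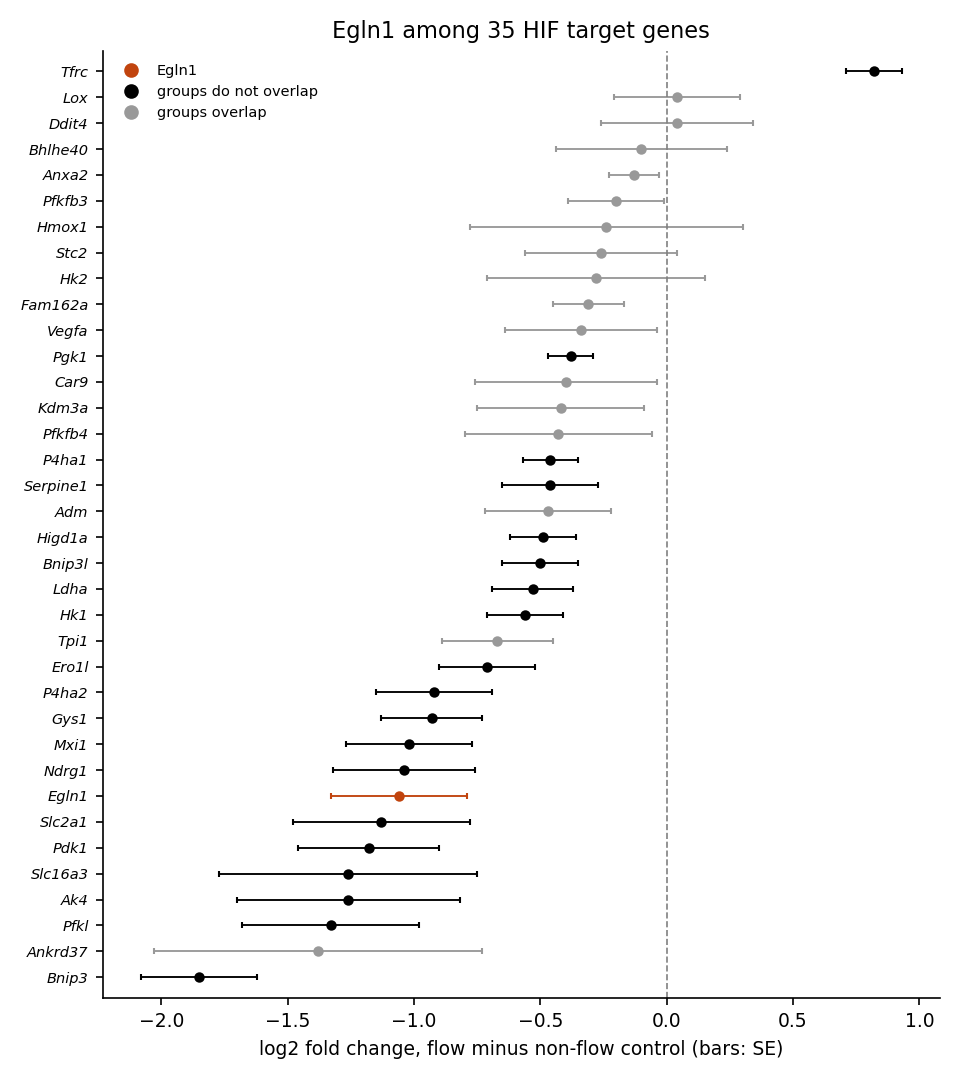
Log2 fold change, flow minus non-flow control, of 35 tested HIF target genes and Egln1, with SE as bars. Egln1 at -1.06 lies between Ndrg1 and Slc2a1, Bnip3 is the lowest at -1.85 and Tfrc the highest at 0.82.

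Oxygenases that use the same cosubstrate as the EGLN enzymes, 2-oxoglutarate, had a median log2 fold change of -0.13 over 45 tested genes, with 8 below all controls, or 17.8%, against 8.0% of all genes. The 4 with the smallest p were collagen-modifying enzymes. P4ha1 and P4ha2, subunits of collagen prolyl 4-hydroxylase, had 58.7 ± 3.22 and 20.3 ± 5.81 FPKM in flow and 81.2 ± 8.44 and 38.4 ± 5.9 FPKM in non-flow control (SD, n = 3 each). Plod1, a lysyl hydroxylase, averaged 40.5 FPKM in flow and 62.4 FPKM in control, and Plod3, another, 102.0 FPKM in flow and 134.1 FPKM in control. P4ha1 and P4ha2 also belong to the list of HIF targets.

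Of 7 tested partners of VHL in the ubiquitin ligase, 6 had log2 fold changes above 0 (median 0.21), against 5772 of 11957 genes. In 2 of the 7 all flow values lay above all controls, against 7.12% of all genes. Tceb1, elongin C, had 102.9, 105.0 and 58.1 FPKM in flow and 61.8, 55.5 and 53.7 FPKM in control (limma, log2 fold change 0.58, SE 0.24, adjusted p = 0.559), and flow library 3 lay within the control range. The conjugating enzymes Ube2d2a and Ube2d3 averaged 57.2 and 317.5 FPKM in flow and 45.5 and 247.0 FPKM in control. Cul2 averaged 54.9 FPKM in flow and 47.0 FPKM in control, with overlapping groups. Of the bHLH-PAS relatives 3 were tested, with a median of 0.27, and Clock, a circadian factor, had 17.0, 16.5 and 15.5 FPKM in flow and 12.6, 12.1 and 13.7 FPKM in control. Arntl and Ahr averaged 8.3 and 5.31 FPKM in flow and 6.82 and 5.64 FPKM in control, with overlapping groups. The alternative beta subunit Arnt2 averaged 0.221 FPKM in flow and 0.162 FPKM in control and was not tested.

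Coactivators and CITED relatives had a median of -0.02 over 7 tested genes. Ep300 and Crebbp, the coactivators p300 and CBP, averaged 10.6 and 10.7 FPKM in flow and 10.6 and 11.5 FPKM in non-flow control, with overlapping groups. Pkm, a pyruvate kinase also described as a HIF coactivator, averaged 731.8 FPKM in flow and 973.7 FPKM in control (limma, log2 fold change -0.42, SE 0.12, adjusted p = 0.559). Kat5, an acetyltransferase, averaged 9.62 FPKM in flow and 11.9 FPKM in control. Ncoa1 and Cdk8 averaged 2.94 and 27.6 FPKM in flow and 2.42 and 25.3 FPKM in control, with overlapping groups. Other regulators of HIF alpha level had a median of -0.04 over 15 tested genes. Siah1b, a ubiquitin ligase, had 11.9, 12.3 and 11.8 FPKM in flow and 8.45, 9.75 and 9.66 FPKM in control. Usp20, a deubiquitinase reported to act on HIF-1 alpha, averaged 9.96 FPKM in flow and 14.6 FPKM in control, with overlapping groups. Hsp90aa1 averaged 1272.8 FPKM in flow and 1049.0 FPKM in control, with overlapping groups. Os9 had 48.2, 55.2 and 54.0 FPKM in flow and 57.1, 72.0 and 58.6 FPKM in control. Siah2, a ligase for EGLN proteins, averaged 21.6 ± 4.31 FPKM in flow and 22.5 ± 6.38 FPKM in control (SD, n = 3 each).

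The tested genes whose log2(FPKM + 1) followed Egln1 most closely over the 6 libraries were Scd2, Apln, Park7, Wbp1 and Pfkp, with Pearson r of 0.998 to 0.987. The likeness to Egln1 was computed after its values were seen, and the 6 points include the difference between groups. Scd2, a fatty acid desaturase, had 34.8, 25.8 and 44.5 FPKM in flow and 66.9, 48.6 and 84.2 FPKM in control. Apln, the peptide apelin, had 8.17, 5.06 and 10.7 FPKM in flow and 18.9, 12.2 and 28.2 FPKM in control. In Egln1, Scd2 and Apln alike library 2 was the lowest and library 3 the highest of either group. For Hif1a the nearest were Cep85, Etv4, E130308A19Rik, Dlc1 and Dab2ip (r of 0.985 to 0.972), and each of these had overlapping groups. For Egln3, at a few reads per library, the short RNAs Snord83b and Snord45b were among the nearest (r of 0.989), and both were listed at 0 in all flow libraries and in control 2.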

How the data were processed

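RNA of 3 flow and 3 non-flow control cultures of MLO-Y4 cells was sequenced as 50-cycle single-end reads, per the labels' protocols. Per the submitters' processing notes, mm10 was the build, and Cufflinks 2.2.1, TopHat2 2.0.9 and CASAVA 1.8.2 were used. For annotation and strand use, nothing is stated (not given in the sources used here). The authors deposited 2 tables of FPKM. The one whose 6 columns name library titles was tested. In the other, 2 flow columns match no title and 22 repeated gene rows were reduced to the row with the higher mean. Both hold the same experiment, so they are no independent replicates.

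The test was limma 3.58.1 (R 4.3.3) on log2(FPKM + 1) of genes averaging 1 FPKM or more (eBayes with trend, two-sided, threshold 0.05, Benjamini-Hochberg adjustment over all genes tested). Read counts were not used here, so no count test was run. P-values measure the spread between cultures collected on separate days. Depth came from the steps of low FPKM in genes with 1 transcript, taking 200 nt off its length. The share of such genes within 0.02 of whole reads was 74.4% to 81.2%. An exact 0 can be a failed estimate. Pearson r between libraries ran from 0.896 to 0.926, and none were identical. GC trends were removed by loess per library. Positions and overlaps came from GENCODE M21 (mm10, 1-based), promoters from RefSeq. Both the test and the depth estimate were run on simulated data, and the outcomes are not reported here.

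The members, the 6 gene lists and the alternatives were chosen with earlier results of these data known. Named genes were the 10 members, up to 4 tested genes per list with the smallest p, and the 5 genes most like Egln3 and Hif1a. Vegfa, Adm, Car9, Siah2, Ep300, Crebbp, Arnt2, Cited1 and those most like Egln1 were added after their values were seen. Of the genes most like Egln3, 1 is not reported here.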

Additional observations from a re-analysis of the deposited data

How the results depend on the processing

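No member and no gene of the 6 lists was called under any of 15 alternatives, and adjusted p-values of members ran from 0.0877 to 0.99. Of 105 member values, 102 kept their direction. The 3 that turned were Hif1a in the other deposited table (0.16) and without flow replicate 1 (0.01; -0.18 to 0.01 over left-out libraries), and Cited2 after GC correction (0.01). The cause was not tested. The fold change of Egln1 ranged from -1.25 to -0.85 on the log2 scale, that of Vhl from -0.56 to -0.23, and that of Arnt from -0.51 to -0.12. The contrast of hydroxylases with subunits was -1.05 with log2(FPKM + 0.1) and -0.75 to -0.44 when libraries were left out. Quantile normalization gave it no value, since Egln3 and Epas1 lie outside the genes it covers. Egln1 minus Hif1a was -0.61 after GC correction and -1.1 to -0.71 when libraries were left out. The median of HIF targets ran from -0.60 to -0.39 then, with 18 to 23 targets below all controls, where fewer libraries make such a count easier to reach. With all libraries the count was 14 in the other table, 16 at a mean of at least 5 FPKM, 17 after GC correction and 18 under the other alternatives.

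Over all genes, 2 were called (1 lower, 1 higher). With log2(FPKM + 0.1) and without a filter 4 were called each time, 3 of them lower. The other table gave 3 higher and 0 lower, and protein-coding genes after GC correction gave 0 in either direction (limma; 409 lower and 287 higher at an unadjusted p under 0.05). Left-out libraries gave 3 to 14 calls (3 to 11 lower, 0 to 9 higher): 3, 12 and 14 without flow replicates 1, 2 and 3, and 10, 12 and 11 without non-flow control replicates 1, 2 and 3.

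With adjacent title numbers as a replicate block, a pairing no label establishes, 1 gene was called, 0 of them higher. Egln1 then had a log2 fold change of -1.06 with SE 0.08 (limma, adjusted p = 0.349). Deviations of adjacent libraries correlated at Pearson 0.0227 to 0.0644 and Spearman 0.241 to 0.299, and by Spearman every library correlated best with its adjacent title, a hint from the data and not the design. The labels speak of parallel controls and separate days but tie no flow library to a control. Over adjacent titles the flow level divided by the control level was 0.466, 0.452 and 0.469 for Egln1, 0.865, 0.932 and 0.844 for Arnt and 0.915, 0.933 and 0.492 for Vhl, below 1 in each pair, and fell on both sides of 1 for Hif1a, Egln2, Hif1an and Cited2. Depth limits Egln3 and Epas1, at 1 to 23 reads per library.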

Other observations

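Cited1, a relative of Cited2 that also binds p300 and CBP, was below the filter and was picked out after its values were seen. It had 0.846, 1.49 and 0.801 FPKM in flow libraries 1 to 3, against 0.399, 0.316 and 0.301 FPKM in non-flow controls 1 to 3, so all flow values lay above all controls. Among the genes tested, which leave Cited1 out, 7.12% did so. Its reads per library were not estimated. In the other deposited table the flow columns held 0, 0.972 and 0.619 FPKM, against 0, 0.311 and 0 FPKM for controls 1 to 3, so the groups overlapped there.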
